A study of Physcomitrium patens with 24 samples.

Results

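The regions described here are stretches of RNA in the moss Physcomitrium patens that held no protein-protected site at 0 min of abscisic acid (ABA) and held reproducible ones at both 30 and 60 min. They were found by protein interaction profile sequencing (PIP-seq), which reads the RNA that bound proteins shield from ribonucleases. Sites of the 3 deposited lists, 1 per time, were joined into regions where they lay less than 500 nt apart on 1 strand of chromosomes 1 to 27. A region was kept if the 0-min list had no site in it and if the 30-min and the 60-min list each had at least 1 site called in both dsRNase replicates. This gave 552 of 21257 regions (2.6%), called newly protected regions below. They were thus chosen by the calls themselves, at 0 min by their absence and at 30 and 60 min by those of dsRNase, and that they hold such calls at 30 and 60 min and none at 0 min is given as a description without a test. The difference between 30 and 60 min, whose direction the choice does not fix, is fitted below for each region, from dsRNase calls that the choice also used. Absence means that the 0-min list has no site there, not that no protein was bound.

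The material was protonema, the filamentous young stage of the moss, taken from plates, sonicated and grown in liquid culture before ABA was added. There were 24 libraries in 12 groups of 2 replicates, and no genotype other than that of the moss itself is named in the labels. Every group was formaldehyde-crosslinked. The control received methanol per the labels' protocols, which do not say at what time it was collected, and the 0-min group is taken as that control. The 30-min and 60-min groups received ABA at a final concentration given as 10 µM in the design text and as 10 mM in the treatment protocol. No control without ABA is listed at 30 or 60 min, so ABA and elapsed time cannot be told apart. At each time the RNA was cut with an RNase specific for unpaired RNA (RNaseONE, ssRNase) or for paired RNA (RNase V1, dsRNase), with or without a digestion of the proteins beforehand. The labels call that digestion proteinase K in the dsRNase libraries and protein kinase in the ssRNase ones, while the extract protocol names Proteinase K for both, and the latter is taken here. Each site in a list names the calls it was made from, which fall into 4 call sets per time, dsRNase and ssRNase in replicates 1 and 2. The labels do not say that replicates came from separate cultures, so the spread behind the p-values is that of these samples and could be technical. The lists hold no gene names and no read counts, so markers of protonema could not be looked up, and the depth of each library is unknown.

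ABA is the hormone of drought and osmotic stress in land plants. Its receptors inhibit a class of protein phosphatases, which frees kinases that activate transcription factors, and in moss protonema the response leads to desiccation tolerance. RNA-binding proteins cover transcripts from synthesis to decay, so a footprint on an RNA needs both the RNA and a protein on it. More of the RNA per cell, more cells that make it and more protein on it cannot be told apart from these lists.

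A locus is a run of overlapping sites of the 3 lists, and the number of loci called in a set is the measure used below. The dsRNase sets held 25801 to 37047 called loci on the chromosomes and the ssRNase sets 5693 to 13217. The 30-min sets stood apart from each other. DsRNase replicate 1 of 30 min held the most dsRNase loci (37047, of which 60.0% lay on the plus strand) and replicate 2 the fewest (25801), while ssRNase replicate 2 of 30 min held the most ssRNase loci (13217, against 8044 in replicate 1). Results that compare the treated times are therefore given with single sets left out.

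The newly protected regions were of ordinary size for regions with reproducible sites. Their median span was 868 nt, from 32 to 8482 nt, with the middle 50% between 388.5 and 1668 nt. The 4956 regions that had the same kind of sites at both treated times but also a site at 0 min, called already protected regions, had a median span of 898 nt. Over all 21257 regions the median span was 103 nt, with a median of 2 loci. The newly protected regions together spanned 673439 nt.

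The number of sites per newly protected region ran from 1 to 47 at 30 min (median 4) and from 1 to 56 at 60 min (median 5). Both medians were 4 in the already protected regions. Sites called in both dsRNase replicates numbered 1948 at 30 min and 2489 at 60 min, with a median per region of 2 and 3. The mean number of dsRNase-called loci over the 4 treated sets had a median of 3.25, against 3 in the already protected regions. Heights were uneven: 39 regions had at least 10 dsRNase-called loci in each of the 4 treated sets, and 166 had a mean of at most 2.

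**Figure D1:**
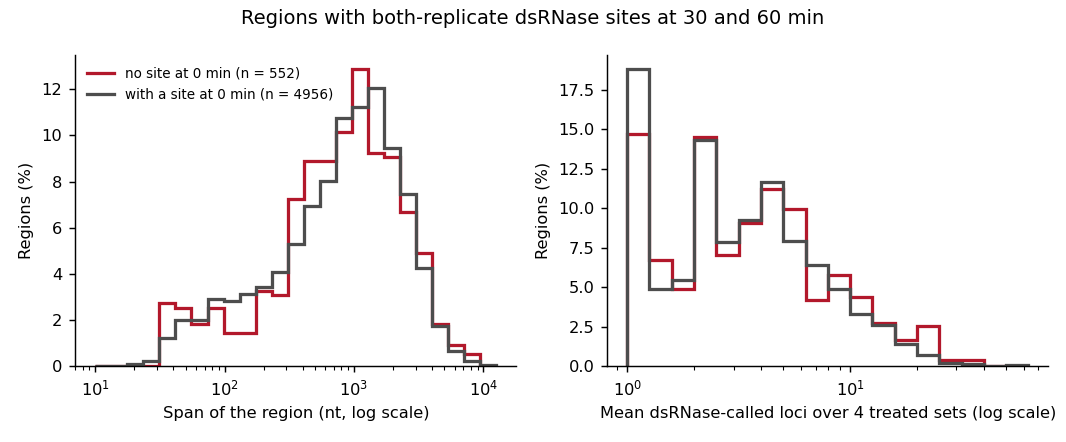
Share of regions by span (left) and by the mean number of dsRNase-called loci over the 4 treated sets (right), both on log axes, for the 552 newly protected regions (red) and the 4956 regions that also had a site at 0 min (grey). The outlines largely overlap, with medians of 868 and 898 nt and of 3.25 and 3 loci.

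The sites themselves were short. Their median width in the newly protected regions was 46 nt at 30 min and 43 nt at 60 min, against 48 and 43 nt in the already protected regions. Sites of at least 200 nt made up 2.04% of the sites at 30 min and 1.82% at 60 min, against 4.24% and 2.87% in the already protected regions. The median share of a region's span covered by sites was 30.7% at 30 min and 33.9% at 60 min, and in the already protected regions it went the other way, from 36.6% to 32.0%.

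The widest site lay on chromosome 24 (chr24:1041874-1043287, plus strand, 30 min), measured 1414 nt and was called in all 4 sets of its time. Its region, chr24:1040763-1043754, was chosen here after its values were seen and was covered over 88.4% of its span at 30 min and 84.8% at 60 min. It had 9 and 8 dsRNase-called loci at 30 min and 7 and 6 at 60 min, and ssRNase calls at 5 and 6 loci and then at 4 and 4. On chromosome 17 (chr17:9737683-9738685, plus strand, 30 min) another site was 1003 nt wide and was also called in all 4 sets. Sites this wide were rare among these regions.

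The most called newly protected region lay on the plus strand of chromosome 26 (chr26:2365188-2373669) and was also the longest. It had 41 and 39 dsRNase-called loci at 30 min and 40 and 36 at 60 min in replicates 1 and 2, and 0 in both 0-min sets by the rule. The ssRNase sets, whose calls the rule did not ask for at the treated times, gave 7 and 17 loci at 30 min and 10 and 12 at 60 min. The treated values of the 2 times overlap for both RNases. Its nearest same-strand site at 0 min was 75482 nt away.

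Next came a plus-strand region on chromosome 10 (chr10:5028443-5034935) with 33 and 37 dsRNase-called loci at 30 min and 35 and 32 at 60 min. It also carried the most ssRNase-called loci, 16 and 24 at 30 min and 13 and 15 at 60 min. Sites covered 52.5% of its span at 30 min and 45.9% at 60 min. The third highest region was chr2:18160365-18166065 on the minus strand, with 31 and 35 dsRNase-called loci and then 31 and 28, and with 8 and 15 ssRNase-called loci and then 6 and 14. In both regions the dsRNase values of 30 and 60 min overlap or meet.

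Further regions among the 10 with the highest mean were of similar height at both treated times. On the plus strand of chromosome 13 (chr13:797838-803390) there were 30 and 21 dsRNase-called loci at 30 min and 26 and 23 at 60 min, and on the minus strand of chromosome 16 (chr16:7857973-7863111) 24 and 27 and then 23 and 25. On chromosome 15 (chr15:16795841-16799796, minus strand) they numbered 26 and 25 and then 24 and 23. On chromosome 9 (chr9:11331872-11336694, minus strand) they numbered 21 and 25 and then 23 and 23, and ssRNase-called loci 7 and 15 and then 9 and 9. The dsRNase values of 30 and 60 min overlap in the regions of chromosomes 13, 16 and 9, while on chromosome 15 both 60-min values lie just below both 30-min values.

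A plus-strand region of chromosome 21 (chr21:1675373-1679305) had 21 and 22 dsRNase-called loci in the 30-min sets and 22 and 23 in the 60-min sets, while its ssRNase-called loci were 13 and 13 and then 7 and 2. Another newly protected region began 678 nt downstream of it on the same strand. On chromosome 1 (chr1:23124712-23129246, plus strand) dsRNase-called loci numbered 26 and 25 at 30 min and 17 and 21 at 60 min, so both 60-min sets lay below both 30-min sets. In the fit described below that difference was -0.32 ± 0.29 on the log2 scale (SE, n = 2 sets per time) and did not pass (limma adjusted p = 0.743).

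One of the 10 differed from the rest. A plus-strand region of chromosome 27 (chr27:4598794-4606598) had 14 and 11 dsRNase-called loci at 30 min and 44 and 43 at 60 min, the highest value of any newly protected region in these 2 sets. Its ssRNase-called loci went from 1 and 1 to 8 and 6. It was the second longest region, at 7805 nt, and the map of its sites shows that those of 30 min were already spread along nearly all of it. The covered share of the span went from 10.6% to 35.5%.

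**Figure D2:**
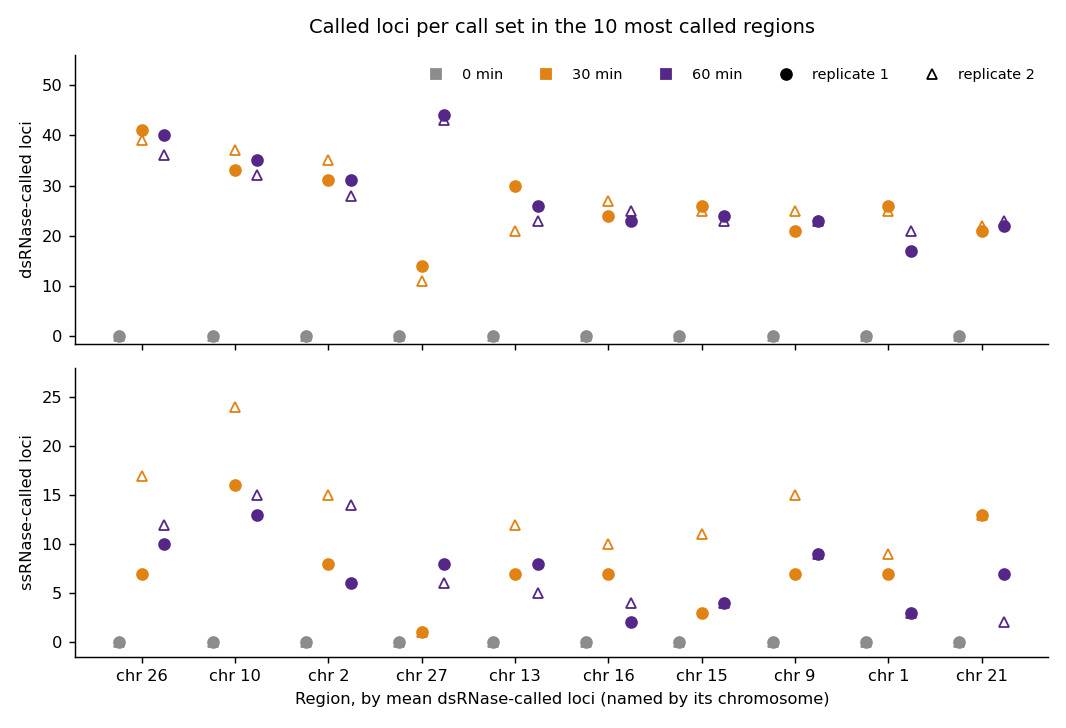
Number of called loci per call set in the 10 newly protected regions with the highest mean number of dsRNase-called loci, for dsRNase (top) and ssRNase (bottom). Grey, orange and purple mark 0, 30 and 60 min, and circles and triangles replicates 1 and 2. The chromosome 27 region has 14 and 11 dsRNase-called loci at 30 min and 44 and 43 at 60 min, and the other 9 regions have between 17 and 41 in every treated dsRNase set.

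**Figure D3:**
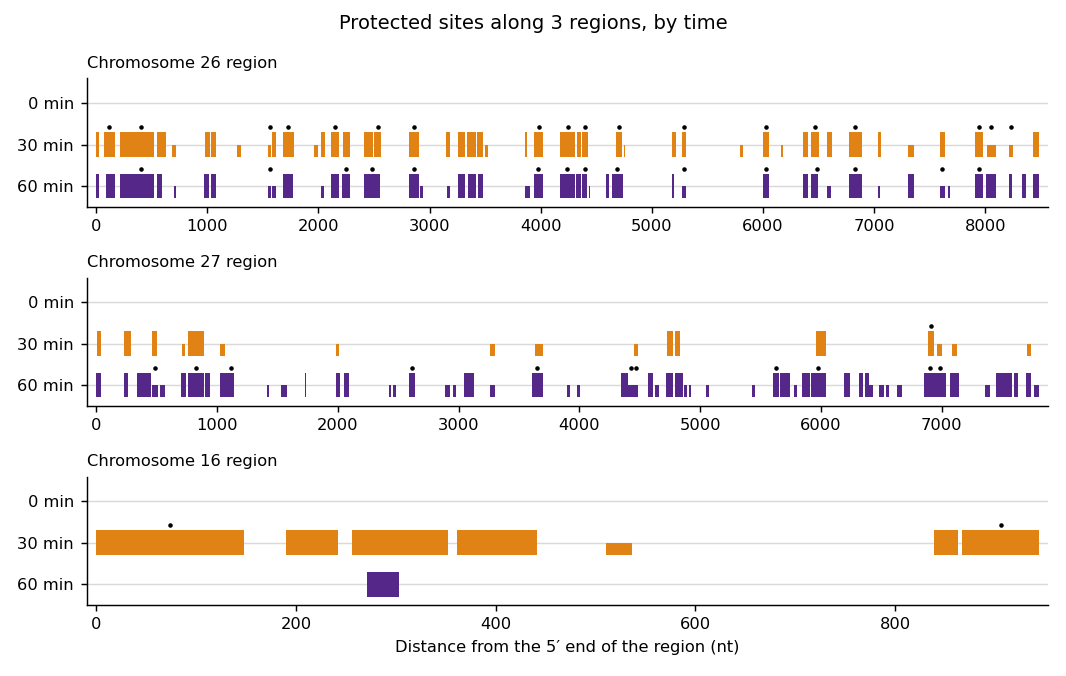
Protected sites along the regions at chr26:2365188, chr27:4598794 and chr16:12174615, as distance in nt from the 5′ end. Tall blocks are sites called in both dsRNase replicates, low blocks other sites, and dots mark sites with an ssRNase call. Rows for 0 min are empty by the rule. Cover is alike at both treated times on chromosome 26, denser at 60 min on chromosome 27, and reduced to 1 site on chromosome 16.

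Most positions protected at 30 min were protected again at 60 min. Of the 3388 sites of 30 min in newly protected regions, 83.5% (95% Wilson interval 82.2 to 84.7%) shared at least 1 nt with a 60-min site of the same strand. Of the 3958 sites of 60 min, 73.1% (71.7 to 74.5%) were overlapped by a 30-min site. In the already protected regions these shares were 79.8% and 85.6%. Among sites of both dsRNase replicates alone they were 78.3% and 63.0% in the newly protected regions, and 76.1% and 75.8% in the already protected ones. Intervals cover counting error alone, and sites of 1 region share their RNA.

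Counted as loci, 62.3% of the 4297 loci in newly protected regions had a site at both treated times, while 24.7% were listed for 60 min alone and 13.0% for 30 min alone. The loci of 60 min alone lay more often toward the 3′ end. In the 248 regions of at least 1000 nt, 30.2% of these loci fell in the last of 5 equal parts of the region, against 21.1% of loci of both times and 21.7% of loci of 30 min alone. In the already protected regions the last part held 29.8% of the 60-min-only loci and between 21.9% and 27% of the loci of each other combination of times. These shares were not tested. A region's ends are set by its outermost sites, and transcript ends are not known here, so the parts are those of the protected stretch and not of a gene.

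The newly protected regions took up more of the dsRNase calls at 60 than at 30 min. They held 7.5% and 8.67% of all dsRNase-called loci of replicates 1 and 2 at 30 min, and 9.3% and 9.91% at 60 min, which gives 8.09% ± 0.827 and 9.61% ± 0.431 (SD, n = 2). The values of the 2 times do not overlap. For the already protected regions the shares were 64.3% and 77.0% at 30 min and 66.8% and 70.7% at 60 min, which overlap.

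The change from 30 to 60 min was then fitted for each region, since the rule asks for the same at both times and sets no direction between them. It does demand a reproducible site at each time, so no newly protected region could be empty at either. Left out by it were 239 regions with such a site at 30 min only and 646 at 60 min only. The fit thus uses calls that the choice also used. Shares of newly and already protected regions that passed are a description and were not tested against each other. Log2 numbers of dsRNase-called loci (with 0.5 added and scaled per call set and strand) of the 4 treated sets were fitted with limma over all 4378 regions with a mean of at least 2 loci. Of all regions tested, 2.86% rose in calls from 30 to 60 min and 1.94% fell, at a Benjamini-Hochberg adjusted p under 0.05. Of the 552 newly protected regions 407 had enough calls to be tested, of which 31 had more calls at 60 min (7.62%) and 1 had fewer (0.246%). Among the 3513 already protected regions tested, 28 had more (0.797%) and 46 fewer (1.31%).

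The median difference of the 407 regions was 0.24 on the log2 scale, with 267 above 0 and 140 below, and that of all regions tested was 0.02. In all 31 regions with more calls both 60-min sets lay above both 30-min sets. Without scaling, the same held for 148 of the 407 regions (36.4%), and for 15.8% of all regions tested. In 30 of the 407 both 60-min sets lay below both 30-min sets, against 12.3% of all regions tested. On simulated calls, unchanged regions made up a larger share of those passing this fit than its threshold allows, so the 31 may hold more wrong calls than the adjusted p gives. Their number rested on having both 60-min sets: fewer of them passed without either one, though all 31 kept a difference above 0. The median difference was 0.303 without replicate 1 of 60 min and 0.175 without replicate 2. Over all regions tested it was then 0.041 and -0.027. With the 0-min sets in the fit 11 passed with more calls (2.7%, against 1.3% of all regions tested), all 11 of them among the 31. Without scaling 11 passed as well (2.7% against 0.959%), but only 5 of the 31 were among them. The number with fewer calls also changed when either 30-min set was left out. Median differences were then 0.139 without replicate 1 and 0.31 without replicate 2, against -0.158 and 0.11 over all regions tested.

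**Figure D4:**
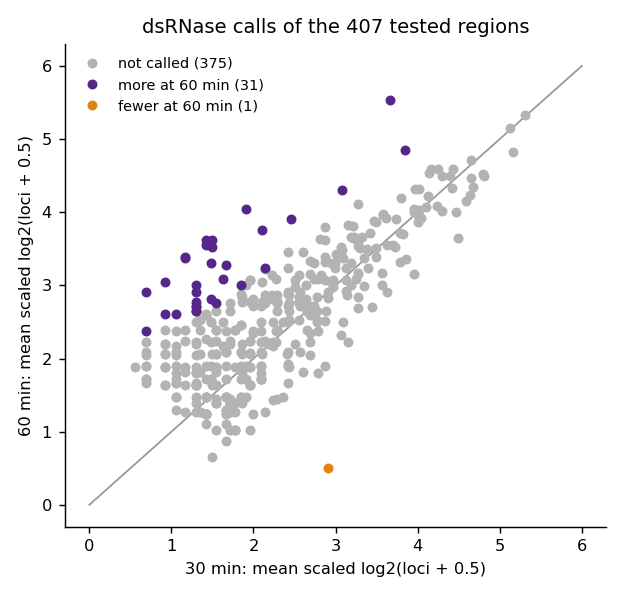
Mean scaled log2 number of dsRNase-called loci (0.5 added) at 30 min (x axis) and 60 min (y axis), 1 point per newly protected region tested (407). The line marks equal values. The 31 purple points above it passed with more calls at 60 min, the orange point below it with fewer, and grey points did not pass.

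The chromosome 27 region described above had the smallest adjusted p. Its rise from 14 and 11 to 44 and 43 loci was 1.87 ± 0.29 on the log2 scale (SE, limma adjusted p = 1.23e-07, higher in 2 of 2 sets). It did not pass without replicate 2 of 60 min (limma adjusted p = 0.119) or without scaling (0.08). The covered length went from 831 to 2769 nt.

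On the minus strand of chromosome 16 (chr16:9585699-9588467) dsRNase-called loci rose from 3 and 3 to 17 and 17, by 2.13 ± 0.34 on the log2 scale (limma adjusted p = 2.48e-07). Here the covered share of the span went from 8.34% to 58.3%, with ssRNase-called loci of 0 and 1 at 30 min and 1 and 3 at 60 min. This region had its nearest same-strand site at 0 min 129892 nt away. On chromosome 21 (chr21:6200696-6202425, minus strand) loci rose from 2 and 2 to 12 and 13, by 2.19 ± 0.37 (limma adjusted p = 1.16e-06), and covered length went from 113 to 742 nt. With a 200 nt gap in place of 500 nt that rise did not pass (limma adjusted p = 0.0619).

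A plus-strand region of chromosome 5 (chr5:14261371-14262815) rose from 5 and 1 to 14 and 9 loci, by 2.13 ± 0.36 (limma adjusted p = 1.71e-06). On chromosome 8 (chr8:3593110-3595761, plus strand) loci rose from 3 and 1 to 9 and 10, by 2.22 ± 0.38 (limma adjusted p = 1.99e-06), with no ssRNase call at any time. This region lay 898 nt from a same-strand 0-min site on its 3′ side. Neither of these rises passed without scaling (limma adjusted p = 0.512 on chromosome 5 and 0.378 on chromosome 8).

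The 31 rising regions lay on 17 chromosomes, and their differences ran from 1.00 to 2.22 on the log2 scale. Their median covered length was 182 nt at 30 min and 582 nt at 60 min, over a median span of 1938 nt. At 30 min 19 of them had at most 3 loci in either dsRNase set, so at that time they were among the sparsely called ones. The ssRNase-called loci, summed over replicates, were more numerous at 60 min in 15 of them, fewer in 6 and equal in 10, of which 2 had none at either time. These sums were not scaled or tested, and they were not counted for other regions, so they are not shown to be particular to the rising ones. In all regions the ssRNase sets held 8044 and 13217 loci at 30 min and 5745 and 5693 at 60 min. Within 2000 nt of a same-strand site of 0 min lay 2 of the 31, and 63 of the 407 regions tested (15.5%).

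The region that fell was on the minus strand of chromosome 16 (chr16:12174615-12175558). It had 6 and 7 dsRNase-called loci at 30 min and 1 and 1 at 60 min, a fall of -2.41 ± 0.47 on the log2 scale (SE, limma adjusted p = 3.82e-05, lower in 2 of 2 sets). The covered length was 503 nt at 30 min and 32 nt at 60 min, and ssRNase-called loci went from 0 and 2 to 0 and 0. Without replicate 2 of 30 min the fall did not pass (limma adjusted p = 0.105).

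SsRNase calls at 30 and 60 min were not used to choose the regions. At 30 min 339 of the 552 newly protected regions (61.4%, 95% Wilson interval 57.3 to 65.4%) had an ssRNase call in at least 1 replicate, and at 60 min 252 (45.7%, 41.5 to 49.8%). Of the 552, 222 had one at both times and 183 at neither, while 117 had one only at 30 min and 30 only at 60 min. The intervals cover counting error alone and not the spread between call sets. By call set, 207 and 320 regions had a call at 30 min (37.5% and 58.0%) and 206 and 203 at 60 min (37.3% and 36.8%). Replicate 1 of 30 min was level with the 60-min sets, and replicate 2 of 30 min, the set with the most ssRNase loci, stood above them. In 128 regions (23.2%) all 4 treated ssRNase sets had a call.

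Among the already protected regions 72.2% had an ssRNase call at 30 min and 2479 of 4956 at 60 min. The gap was widest in the sparsely called regions. Where the mean of dsRNase-called loci was at most 2, 25.3% of 166 newly protected regions had an ssRNase call at 30 min, against 52.5% of 1740 already protected ones, and 16.3% against 33.9% at 60 min. Where it was over 8, the shares were 98.9% of 91 and 97.6% of 628 at 30 min, and 92.3% and 87.4% at 60 min. These are descriptions of 2 sets of regions in the same call sets, and the difference was not tested.

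**Figure D5:**
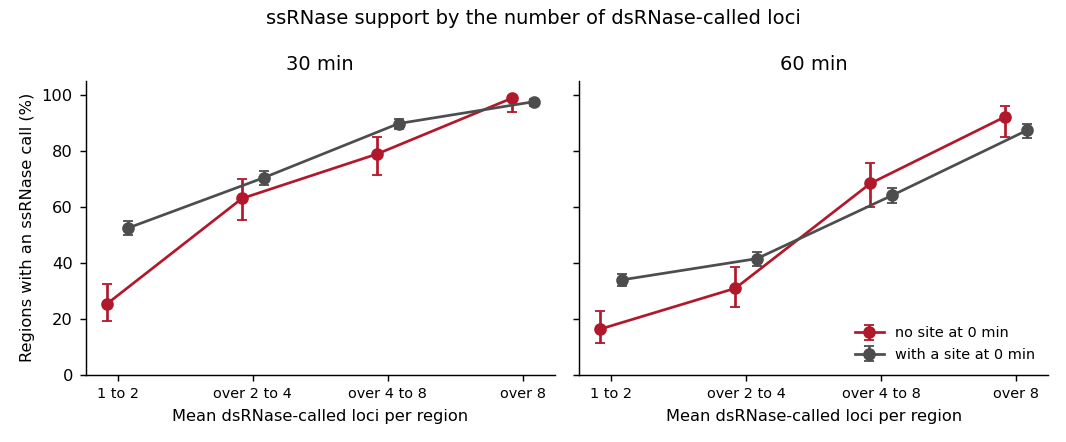
Share of regions with an ssRNase call in at least 1 replicate at 30 min (left) and 60 min (right), by the mean number of dsRNase-called loci, for newly protected (red) and already protected (grey) regions. Bars are 95% Wilson intervals, which cover counting error alone. In regions with a mean of at most 2 loci the shares are 25.3% and 52.5% at 30 min, and over 8 loci they are 98.9% and 97.6%.

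Within the newly protected regions, 32.9% of sites had ssRNase support at 30 min and 19.6% at 60 min, close to the 33.0% and 19.1% over the sites of all regions and below the 39.8% and 22.8% in the already protected ones. Of the sites with ssRNase support in newly protected regions, 89.3% and 90.1% were also called by dsRNase. In the already protected regions, chosen with dsRNase sites as well, 86.7% and 86.4% were, and in all regions 80.4% and 81.1%. Sites called in all 4 sets of their time numbered 294 at 30 min and 193 at 60 min. The 5 regions with the most ssRNase-called loci were those on chromosomes 10, 26, 2 and 9 named above and a plus-strand region on chromosome 4 (chr4:15610510-15614450). The latter had 11 and 8 ssRNase-called loci at 30 min and 10 and 10 at 60 min, beside 17 and 14 and then 19 and 18 dsRNase-called loci. It was the most evenly supported of the 5 across call sets, and its cover went from 55.3% to 68.8% of the span.

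Some regions were seen with dsRNase alone. The most called of these lay on the minus strand of chromosome 10 (chr10:10458374-10459424), with 8 and 4 dsRNase-called loci at 30 min and 10 and 10 at 60 min and no ssRNase call in any set. Next was a plus-strand region of chromosome 19 (chr19:6467564-6468619) with 7 and 4 and then 7 and 7. Neither changed past the test between the treated times (limma adjusted p = 0.471 and 0.653).

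The fit of ssRNase-called loci from 30 to 60 min covered 1296 regions, and 102 of the 552 newly protected regions had enough calls to enter. With limma, 0 newly protected regions had more and 0 had fewer ssRNase calls at 60 min (Benjamini-Hochberg adjusted p), as did 0.0% of all regions tested in either direction. At an unadjusted limma p under 0.05 there were 15 newly protected regions with more and 5 with fewer, and 101 and 41 among all 1296 regions. The median difference was 0.47 on the log2 scale among the 102 and 0.32 among all 1296. The direction depended on the scaling: without it both medians were below 0 (-0.40 and -0.54). Then 1 newly protected region passed with more calls and 2 with fewer, and 2 and 46 of all 1296 regions. With replicate 1 or 2 of the 60-min ssRNase sets left out, the medians were 0.561 and 0.416, against 0.356 and 0.312 over all regions tested. Some newly protected regions then passed in each direction, with a single set left at 60 min. Over all regions tested, more then passed with fewer calls than with more.

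Newly protected regions were found on all 27 chromosomes and about equally on both strands, 278 on the plus and 274 on the minus strand. They made up 1.08% of the regions of chromosome 11, the lowest share, and 3.91% of those of chromosome 8, the highest, with a median of 2.81% over chromosomes. With scaffolds included, 0 scaffold regions met the rule. No newly protected region was overlapped by a region of the opposite strand at any time (0 of 552, which allows a share of up to 0.543%), against 0.706% of already protected regions. Opposite-strand overlap was rare throughout the lists, at 0.494% of all regions.

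The rule keeps newly protected regions away from 0-min sites, since a same-strand site less than 500 nt away would have been joined. The lowest distance was 515 nt. Distances of other regions without a 0-min site are not given, so those below are not shown to be particular to newly protected ones. The median distance to the nearest 0-min site on the same strand was 11506.5 nt, with the middle 50% between 2674 and 41457.5 nt. Within 2000 nt of such a site lay 113 regions (20.5%), with the 0-min site on the 5′ side of 58 and on the 3′ side of 55. These near regions were smaller, with a median span of 545 nt against 1001 nt for the other 439. They also had fewer dsRNase-called loci, with a median of 2 against 3.75. Of the near regions 18.6% had ssRNase calls at both treated times, against 45.8% of the others. Among all newly protected regions that share was 10.2% at a mean of at most 2 dsRNase-called loci and 91.2% over 8. Whether the distance matters beyond the number of loci was not tested. Whether a near region is part of the same transcript as the 0-min site was not tested.

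On chromosome 15, 2 newly protected regions of 1016 nt on the minus strand (chr15:558620-559635 and chr15:572098-573113) had the same run of site widths and gaps and the same values, 4 and 1 dsRNase-called loci at 30 min and 5 and 6 at 60 min. Between them a plus-strand region of the same span (chr15:567840-568855) was also newly protected, with 6 and 5 and then 5 and 5. Reads from near-identical copies could be shared among them, so these are uncertain as separate regions. No other newly protected region shared widths and gaps of 4 consecutive sites with any region.

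At the edge of the rule, 136 of the 552 regions had exactly 1 reproducible site at each treated time, and 48 had exactly 1 site of any kind in each treated list. The shortest were a plus-strand region of 32 nt on chromosome 8 (chr8:11454879-11454910) and one of 33 nt on chromosome 9 (chr9:3086336-3086368), each with 1 locus in each of the 4 dsRNase sets and no ssRNase call. Just outside, 836 regions met the rule but for exactly 1 site at 0 min. The most called of these was chr22:14155141-14164136 on the minus strand, whose dsRNase-called loci were 0 and 1 at 0 min, then 32 and 42, then 34 and 33. A second one, chr25:961466-968994 on the minus strand, had 0 and 1, then 25 and 18, then 29 and 26.

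Of the 4436 regions with no site at 0 min, 239 had a reproducible dsRNase site at 30 min but not at 60 min, and 646 at 60 min but not at 30 min. The most called of these were on chromosome 22 (chr22:935858-938907, plus strand), with 5 and 1 dsRNase-called loci at 30 min and 11 and 9 at 60 min, and on chromosome 13 (chr13:12266384-12268607, plus strand), with 5 and 1 and then 11 and 8. In both, no 30-min site was shared by the 2 replicates. The number of newly protected regions depended on that condition: with dsRNase replicate 2 of 30 min, the set with the fewest loci, left out, 886 regions met the rule.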

How the data were processed

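PIP-seq sites came from 3 deposited lists, 1 per ABA time. Per the submitters' processing notes, reads were handled with cutadapt 1.2.1 and TopHat2 2.0.10, and the build named, mm10, is a mouse build. The lists use 27 moss chromosomes, and their build and peak caller settings are not given in the sources used here beyond the words CSAR and an FDR of 5% per the file names. The score of each site is a value the authors deposited without a stated unit, and it entered 1 alternative only. The column of call names, which the authors deposited as other text, gave the call sets. The gene table at hand is of another build with 26 chromosomes, so no gene, sequence or feature was used.

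Starts were made 1-based. Called loci per set (0.5 added, scaled per call set and strand) of the 30-min and 60-min sets went into a mean-trend fit in limma 3.58.1 under R 4.3.3, for regions with a mean of at least 2 loci, and p-values were Benjamini-Hochberg adjusted over all of them. The fit was tested on simulated calls, in which unchanged regions made up more of the passing dsRNase regions than the threshold allows and no ssRNase change was recovered. The adjusted p of dsRNase changes may therefore be too small as an error rate, and a count of 0 for ssRNase does not show that nothing changed. Named are the 10 regions with most dsRNase loci, the 5 with most ssRNase loci, the first 5 per direction of the dsRNase fit (3 for ssRNase), the 2 longest and 2 shortest, the 2 most called without ssRNase, and 4 beside the rule. Regions, lists and this rule were chosen with earlier results of these data known. Alternatives changed the gap, the rule, the scaling, the added value, the minimum, the measure, the times or sets in the fit, and the replicate block. Depth is unknown, so no depth-based limit is given.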

Additional observations from a re-analysis of the deposited data

How the results depend on the processing

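The number of newly protected regions was 1107 with a gap of 200 nt, 1557 when a site of 1 dsRNase replicate sufficed at each treated time and 283 when 2 reproducible sites were required; with single dsRNase sets left out it ran from 593 to 886. Their median span was 287 nt with a gap of 200 nt and 1657.5 nt with a gap of 1000 nt.

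The number with more dsRNase calls at 60 than at 30 min, 31 as reported, was 11 without scaling, 11 with all 3 times in 1 fit, 57 for called nucleotides (10 nt added) and 14 with a gap of 200 nt, and 9 to 43 with single sets left out. The number with fewer, 1 as reported, was 2 without scaling, 0 at a minimum mean of 4 loci, 6 for called nucleotides, 2 with a gap of 1000 nt, and 0 to 7 with single sets left out. For called nucleotides 14.0% of the newly protected regions tested had more calls, against 3.59% of all regions tested. With a gap of 200 nt these shares were closer, at 2.32% and 1.33%. The 6 with fewer called nucleotides stood beside 132 of all 4378 regions tested. A fit left with 1 set at a time assumes that it varies like the other sets. Replicate numbers were shared by the groups, and deviations of same-numbered sets correlated at 0.20 (dsRNase) and 0.16 (ssRNase). With only 2 numbers this does not establish pairs. With a replicate block 55 regions had more and 6 fewer dsRNase calls, all 31 of the rises among them, and 5 had more ssRNase calls. The shares with more were 13.5% for dsRNase and 4.9% for ssRNase, against 4.66% and 0.617% of all regions tested. An alternative added after seeing the data, leaving out regions within 2000 nt of a 0-min site, gave 29 and 1. Without scaling 1 region had more and 2 fewer ssRNase calls, beside 2 and 46 of all 1296 regions tested. These numbers also changed when either 60-min ssRNase set was left out.

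Calls of both ssRNase replicates at both treated times were found in 128 regions. Recurrence was 80.9% of 30-min and 70.2% of 60-min sites at an overlap of 50% of the site, and 78.3% and 63.0% for reproducible dsRNase sites. Within 1000 nt of a 0-min site lay 49 regions and within 5000 nt 190. Of 89 alternative values for the 6 regions named for their change from 30 to 60 min, 83 stayed past the threshold and 6 did not, none with the direction turned. These regions had been picked by their adjusted p in the same fit, so this does not show that the other rises hold. Of all 31 rises, 5 passed without scaling and 11 with all times fitted together. With scaling over both strands 27 passed, and for called nucleotides all 31.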
